A study of Mus musculus with 12 samples.

Results

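Tubular injury and repair markers are genes that kidney tubule cells switch on when they are damaged or rebuild the epithelium. Of 9 listed markers, 7 had a probe set assigned to that gene symbol alone, and these 7 are among 19938 genes tested: Lcn2, Clu, Havcr1, Cd44, Vcam1, Cd24a and Sox9. Each had 1 such probe set, so no choice between probe sets was needed. Spp1, which encodes osteopontin, and Cdkn1a, which encodes the cell cycle inhibitor p21, have no value here. On build GRCm38.p6 the measured genes lie at chr2:32384637-32387739 (Lcn2), chr14:65968483-65981548 (Clu), chr11:46739822-46779578 (Havcr1), chr2:102811141-102901669 (Cd44), chr3:116110020-116129688 (Vcam1), chr10:43579169-43584265 (Cd24a) and chr11:112782210-112787757 (Sox9). The probe set of Cdkn1a carries a second gene symbol, and no probe set is named for Spp1 in the annotation used.

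RNA came from whole kidneys of 3-week-old mice in 4 groups of 3 arrays. Pparg null mice (PpargΔ/Δ), which lack the nuclear receptor PPARγ, and their controls share a mixed C57BL6/SV129 background. AZIP mice, in which a transgene prevents fat tissue from forming, and their controls share the FVB background. Every array held pooled RNA of 3 mice, 36 mice in all, so the spread between arrays is a spread between pools. The labels used here name neither the sex of the mice, nor how Pparg was deleted, nor the promoter of the transgene. In the published A-ZIP/F-1 line the transgene is driven by regulatory DNA of the fat-cell gene Fabp4.

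Lipocalin 2, the product of Lcn2, is a small secreted protein that binds bacterial siderophores. It is released by stressed distal tubule and collecting duct cells as well as by neutrophils. KIM-1, the product of Havcr1, is a phosphatidylserine receptor that appears on injured proximal tubule cells and lets them take up dead neighbours. CD44 and VCAM-1 are adhesion molecules found on injured or maladapted tubule cells and also on leukocytes or endothelium, and SOX9 is a transcription factor of regenerating tubule cells. Clusterin is a secreted chaperone and CD24 a small surface glycoprotein, both abundant in kidney epithelium. In whole tissue, a change in the number of cells of a type and a change in RNA per cell cannot be told apart.

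The 7 measured kidney identity genes, among them Slc34a1 and Lrp2 of the proximal tubule, Umod of the thick limb and Aqp2 of the collecting duct, averaged between 11.89 and 12.00 on the 12 arrays, far above the array medians of 7.17 to 7.21. The mean correlation between arrays within a group was 0.997 to 0.998. Values are log2 intensities, on which 1 unit is a doubling. Differences are mutant minus control with the standard error from limma, n = 3 arrays per group, and a gene was called at a Benjamini-Hochberg adjusted p under 0.05 over all genes.

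The 250 bases before the annotated starts of Lcn2 and Cd44 are shown because the values of these genes and of Havcr1 varied together from array to array, as described further on. They come from RefSeq on build GRCm38.p6, which held windows for 5 of the 9 listed genes (Lcn2, Cd44, Havcr1, Spp1 and Cdkn1a). Capitals mark the letters of a C/EBP motif, TTNNGNAA, on either strand. In the Lcn2 window the motif reads on the strand opposite to the printed one, so the printed capitals are its reverse complement. The Lcn2 window is chr2:32387740-32387989 on the minus strand, and the Cd44 window is chr2:102901666-102901915 on the minus strand. The Cd44 window overlaps the gene span given above by a few bases, because the annotated start it precedes lies just inside that span.
Lcn2: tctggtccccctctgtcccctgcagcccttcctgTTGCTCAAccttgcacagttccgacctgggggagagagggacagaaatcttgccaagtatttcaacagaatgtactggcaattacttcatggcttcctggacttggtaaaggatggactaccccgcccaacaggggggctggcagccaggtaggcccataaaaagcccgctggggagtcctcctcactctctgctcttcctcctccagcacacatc
Cd44: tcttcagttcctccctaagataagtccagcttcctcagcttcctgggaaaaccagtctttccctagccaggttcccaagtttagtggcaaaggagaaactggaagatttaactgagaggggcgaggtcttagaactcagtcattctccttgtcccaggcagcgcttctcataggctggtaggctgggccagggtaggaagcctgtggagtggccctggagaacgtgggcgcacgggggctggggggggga
The C/EBP motif was found once in the Lcn2 window, starting 216 bases before the start, and not in the Cd44 window. It was present in 36.8% of 32851 windows of that length. Of the 3 windows of Havcr1, at 3 annotated starts, 1 held it, beginning 46 bases before its start. Both strands were also searched for 5 further motifs, and neither the Lcn2 nor the Cd44 window held any of them. A STAT motif (TTCNNNGAA) was present in 7.02% of all windows and an AP-1 motif (TGANTCA) in 6.75%. A glucocorticoid receptor motif (AGAACA) was present in 16.1%, the NF-kB motif in 7.25% and a TATA box (TATAAA) in 12.4%. Motifs may overlap each other. These are matches of letters in a short window and show no binding.

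Of the 7 markers only Lcn2 was called in the Pparg null kidney, and it was nearly 4-fold higher than in the mixed controls. Lcn2 read 10.50, 9.29 and 9.69 on the Pparg null arrays, against 7.88, 7.75 and 8.01 on the mixed control arrays. Every mutant array lay above every control array. The difference was 1.94 ± 0.24, a 3.85-fold rise (limma adjusted p = 0.00184). Array 1 of the Pparg null group was the highest, and without it the difference was still 1.61. Across all 16 alternatives the difference of Lcn2 ran between 1.61 and 2.21, with a limma adjusted p of at most 0.0181. That 1 call among 7 markers stands beside 5.29% of all genes called in this comparison, 2.67% being higher (532 of 1055 calls, and 436 of 1130 once array medians were set equal).

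In the AZIP kidney Lcn2 was higher on every array too, by a smaller difference that missed the threshold. It read 8.09, 8.57 and 8.19 on the AZIP arrays, against 7.56, 7.23 and 7.46 on the FVB control arrays. The groups did not overlap, and the difference was 0.87 ± 0.24, or 1.82-fold (limma adjusted p = 0.0847). Both mutants were thus above controls of their own background, and AZIP arrays lay below every Pparg null array. The effect in the Pparg null line exceeded that in the AZIP line by 1.08 ± 0.34 in log2, which was not called (limma adjusted p = 0.746, unadjusted 0.00805). The order of the group means was Pparg null 9.83 ± 0.62, AZIP 8.28 ± 0.26, mixed control 7.88 ± 0.13 and FVB control 7.42 ± 0.17 (SD, n = 3 arrays each), and no array of one group reached the range of the next.

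**Figure D1:**
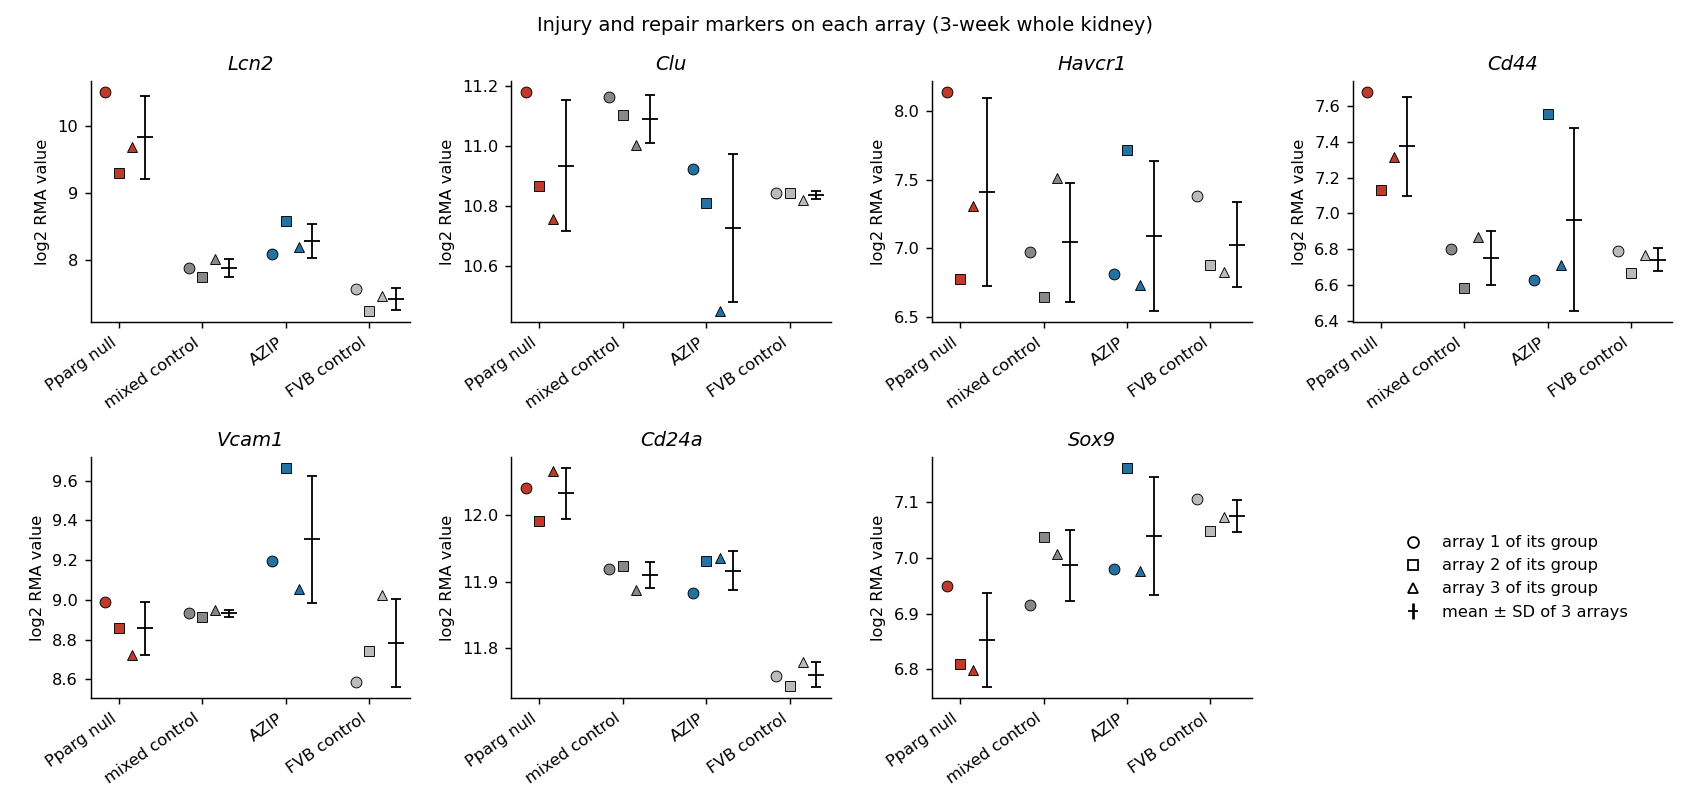
Log2 RMA value (vertical axis, its own scale in each panel) of the 7 markers on each of the 12 arrays, by group, with the shape of the point giving the array number and bars the mean ± SD of 3 arrays. Lcn2 lies between 9.29 and 10.50 in Pparg null kidneys and below 8.6 in all other groups, while array 1 of the Pparg null and array 2 of the AZIP group are the highest of their groups for most markers.

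Clu, the other secreted marker, was called in neither comparison. It read 11.179, 10.866 and 10.756 on the Pparg null arrays, against 11.161, 11.104 and 11.002 on the mixed control arrays. AZIP arrays read 10.92, 10.81 and 10.45, against 10.84, 10.84 and 10.82 on the FVB control arrays. The groups overlapped in both lines, with differences of -0.16 ± 0.12 for Pparg null (limma adjusted p = 0.521) and -0.11 ± 0.12 for AZIP (limma adjusted p = 0.735). From high to low the group means ran mixed control (11.09), Pparg null (10.93), FVB control (10.83) and AZIP (10.73), and each group overlapped the next.

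Havcr1, the KIM-1 gene, was not called and varied more between arrays of a group than between groups. On the Pparg null arrays it read 8.14, 6.78 and 7.31, against 6.97, 6.65 and 7.51 on the mixed control arrays. AZIP arrays read 6.82, 7.72 and 6.73, against 7.38, 6.88 and 6.83 on the FVB control arrays. Each group held 1 array well above its other 2, the controls included. The differences were 0.36 ± 0.35 for Pparg null, with an unadjusted 95% interval of -0.39 to 1.12 (limma adjusted p = 0.614), and 0.06 ± 0.35 for AZIP, with an interval of -0.70 to 0.82 (limma adjusted p = 0.962). At this spread a moderate shift of Havcr1 was not detectable. Without array 1 of the Pparg null group the difference was 0.00, and without array 2 of the AZIP group -0.25. Group means ran in the order Pparg null (7.41), AZIP (7.09), mixed control (7.04) and FVB control (7.03), with all neighbours overlapping.

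Timd2, a mouse relative of Havcr1 in the TIM family, rose in Pparg null kidneys. It read 7.50, 7.72 and 7.40 on the Pparg null arrays, against 6.18, 6.17 and 6.76 on the mixed control arrays, a rise of 1.17 ± 0.15 (limma adjusted p = 0.00184). In AZIP kidneys its difference was -0.30 ± 0.15 (limma adjusted p = 0.348). The effects differed by 1.47 ± 0.21, Pparg null minus AZIP, which missed the threshold (limma adjusted p = 0.0552). The other relatives Havcr2 (0.17) and Timd4 (0.04) were not called in Pparg null kidneys. Whether probes of one TIM gene read RNA of another was not tested.

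Cd44 was higher on all Pparg null arrays but not called. It read 7.68, 7.13 and 7.31 there, against 6.80, 6.58 and 6.87 on the mixed control arrays, and the groups did not overlap. The difference was 0.62 ± 0.21, or 1.54-fold (limma adjusted p = 0.109), and over 15 alternatives its limma adjusted p lay between 0.0628 and 0.277. AZIP arrays read 6.63, 7.55 and 6.71, against 6.79, 6.67 and 6.77 on the FVB control arrays. One AZIP array stood above every control while the other 2 did not, and the difference of 0.22 ± 0.21 (limma adjusted p = 0.668) became -0.07 without array 2. Pparg null (7.37) was the highest group, followed by AZIP (6.97), mixed control (6.75) and FVB control (6.74), and AZIP overlapped both of its neighbours.

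Vcam1 was higher on all AZIP arrays and not on the Pparg null arrays, without a called difference. AZIP arrays read 9.19, 9.67 and 9.06, against 8.58, 8.74 and 9.02 on the FVB control arrays, and the groups did not overlap, although AZIP array 3 and FVB control array 3 were close. The difference was 0.52 ± 0.14, or 1.44-fold (limma adjusted p = 0.0827). Pparg null arrays read 8.99, 8.86 and 8.72, against 8.93, 8.91 and 8.95 on the mixed control arrays, a difference of -0.08 ± 0.14 with overlap (limma adjusted p = 0.831). The 2 effects differed by -0.60 ± 0.20, Pparg null minus AZIP, which was not called (limma adjusted p = 0.817, unadjusted 0.0127). AZIP had the highest mean (9.30), above mixed control (8.93), Pparg null (8.86) and FVB control (8.78), and the last 3 overlapped.

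Cd24a, which encodes the CD24 glycoprotein, differed by small amounts with little spread between arrays. It read 12.04, 11.99 and 12.07 in Pparg null kidneys, against 11.92, 11.92 and 11.89 in mixed controls. In AZIP kidneys it read 11.88, 11.93 and 11.94, against 11.76, 11.74 and 11.78 in FVB controls. Neither pair of groups overlapped, with differences of 0.12 ± 0.04 for Pparg null (1.09-fold, limma adjusted p = 0.113) and 0.16 ± 0.04 for AZIP (1.11-fold, limma adjusted p = 0.0717). These values are on either side of the threshold depending on the setting: the limma adjusted p ran between 0.0359 and 0.267 for Pparg null and between 0.0166 and 0.205 for AZIP. Cd24a was the only marker called between the control backgrounds, at -0.15 ± 0.04 for FVB controls minus mixed controls (limma adjusted p = 0.0477). Beside that 1 call, 7.22% of all genes were called between the backgrounds, 3.72% being lower. With the replicate number as a block Cd24a missed the threshold (limma adjusted p = 0.0644), and it was not called when any 1 of the 6 control arrays was left out (largest limma adjusted p = 0.157). FVB and mixed controls did not overlap for 4 of 7 markers, beside 28.5% of all genes, Sox9 being higher in FVB controls and Lcn2, Clu and Cd24a lower. The group means of Cd24a were 12.03 in Pparg null, 11.92 in AZIP, 11.91 in mixed control and 11.76 in FVB control kidneys, and of these neighbours AZIP and mixed control overlapped.

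Sox9, the only transcription factor measured, was called in neither comparison. Pparg null arrays read 6.95, 6.81 and 6.80, against 6.92, 7.04 and 7.01 on the mixed control arrays. AZIP arrays read 6.98, 7.16 and 6.98, against 7.11, 7.05 and 7.07 on the FVB control arrays. Both pairs of groups overlapped, with differences of -0.13 ± 0.06 (limma adjusted p = 0.258) and -0.04 ± 0.06 (limma adjusted p = 0.850). Group means ran in the order FVB control (7.08), AZIP (7.04), mixed control (6.99) and Pparg null (6.85), each overlapping the next.

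Read together, 1 of 7 markers was called in Pparg null and 0 of 7 in AZIP kidneys, where 2.43% of all genes were called (260 of 485 higher, and 203 of 529 once array medians were set equal). At an unadjusted p under 0.05 limma gave 3 of 7 in each comparison, beside 20.4% of all genes for Pparg null and 16.4% for AZIP. Non-overlapping groups in either direction were seen for Lcn2, Cd44 and Cd24a in Pparg null kidneys and for Lcn2, Vcam1 and Cd24a in AZIP kidneys, 3 of 7 each and all of them higher in the mutant, beside 26.1% of all genes for Pparg null and 22.5% for AZIP. The difference between the effects was called for 0 of 7 markers, with 2 at an unadjusted limma p under 0.05 (Lcn2 and Vcam1), beside 0.0201% of all genes called and 5.82% at that unadjusted p. The median difference of the 7 markers was 0.12 for Pparg null and 0.16 for AZIP, against -0.01 and 0.00 over all genes.

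**Figure D2:**
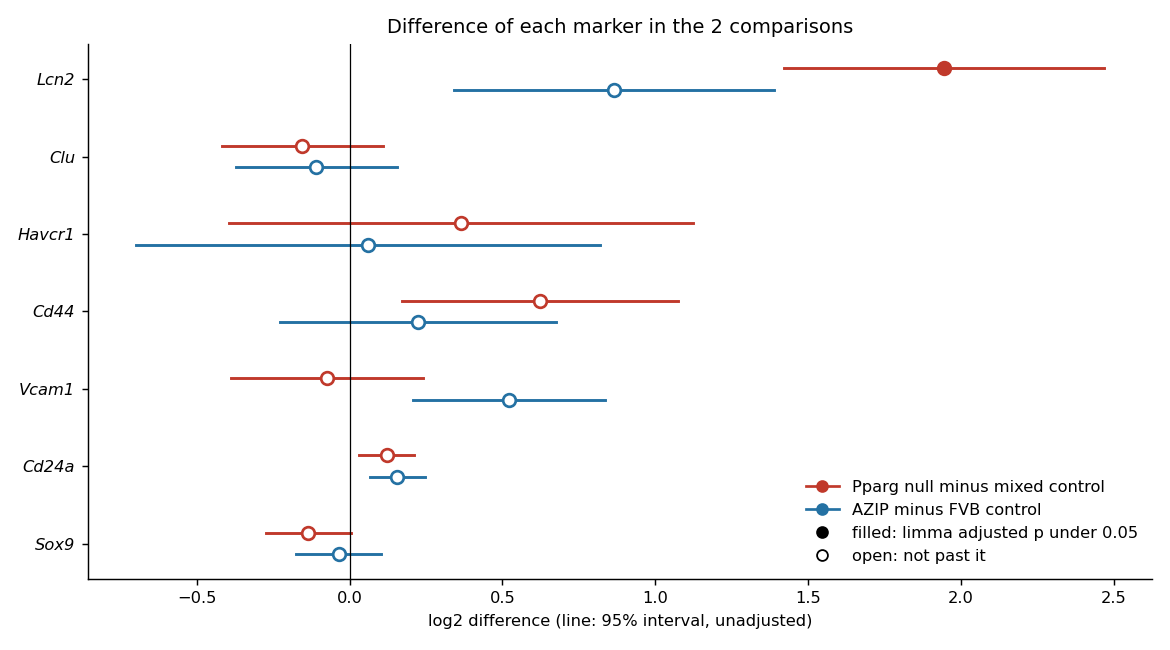
Log2 difference of each marker (horizontal axis) for Pparg null minus mixed control (upper, red) and AZIP minus FVB control (lower, blue), with unadjusted 95% intervals and filled points for a limma adjusted p under 0.05. Lcn2 in Pparg null kidneys, at 1.94, is the 1 filled point, and the widest intervals are those of Havcr1.

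Within groups, several of the 7 markers deviated together. Array 1 of the Pparg null group held the highest value of its group for 6 of 7 markers, against 33.2% of all genes, and array 2 of the AZIP group for 5 of 7, against 32.4% of all genes. Control arrays showed this too: FVB control 1 was highest of its group for 5 of 7, against 35.7% of all genes, and mixed control 3 for 4 of 7, against 32.7%. On FVB control 1 most leads over the next array were small: Clu 10.844 against 10.841, Cd44 6.790 against 6.769, Sox9 7.105 against 7.073 and Lcn2 7.561 against 7.462. For Havcr1 it was 7.380 against 6.877. As deviations from the group means over 12 arrays, with 8 degrees of freedom, Lcn2 and Havcr1 correlated at 0.90, Havcr1 and Cd44 at 0.87, Cd44 and Sox9 at 0.79 and Lcn2 and Cd44 at 0.78. Cd24a did not follow them, at 0.19 with Havcr1 and 0.40 with Lcn2, and Clu was at 0.41 with Havcr1. These correlations describe 12 pools of 3 mice each.

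Macrophage markers were high on both mutant arrays named and not on FVB control 1. The mean of 16 macrophage markers was 8.06, 7.55 and 7.71 on the Pparg null arrays, against 7.57, 7.45 and 7.69 on the mixed control arrays. It was 7.20, 7.61 and 7.16 on the AZIP arrays, against 7.21, 7.25 and 7.22 on the FVB control arrays. Array 1 of the Pparg null group was the highest of its group for 14 of 16 and array 2 of the AZIP group for 14 of 16, beside 33.2% and 32.4% of all genes. Mixed control 3 was the highest for 10 of 16. FVB control 1, highest for 5 of 7 injury markers but mostly by small margins, was the highest for 4 of 16. Its mean was the lowest of its group, though the 3 means were close. The macrophage integrin gene Itgam read 7.42, 6.66 and 6.74 on the Pparg null arrays, against 6.45, 6.32 and 6.80 on the mixed control arrays, and Lyz2, lysozyme of macrophages and neutrophils, reached 10.45 on Pparg null array 1 and 9.47 on AZIP array 2. By limma, 0 of the 16 were called in either mutant comparison. At an unadjusted limma p under 0.05 there were 2 for Pparg null and 3 for AZIP, beside 20.4% and 16.4% of all genes. The part of leukocyte RNA in the array-to-array variation of Havcr1, Cd44 and Lcn2 was not tested.

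**Figure D3:**
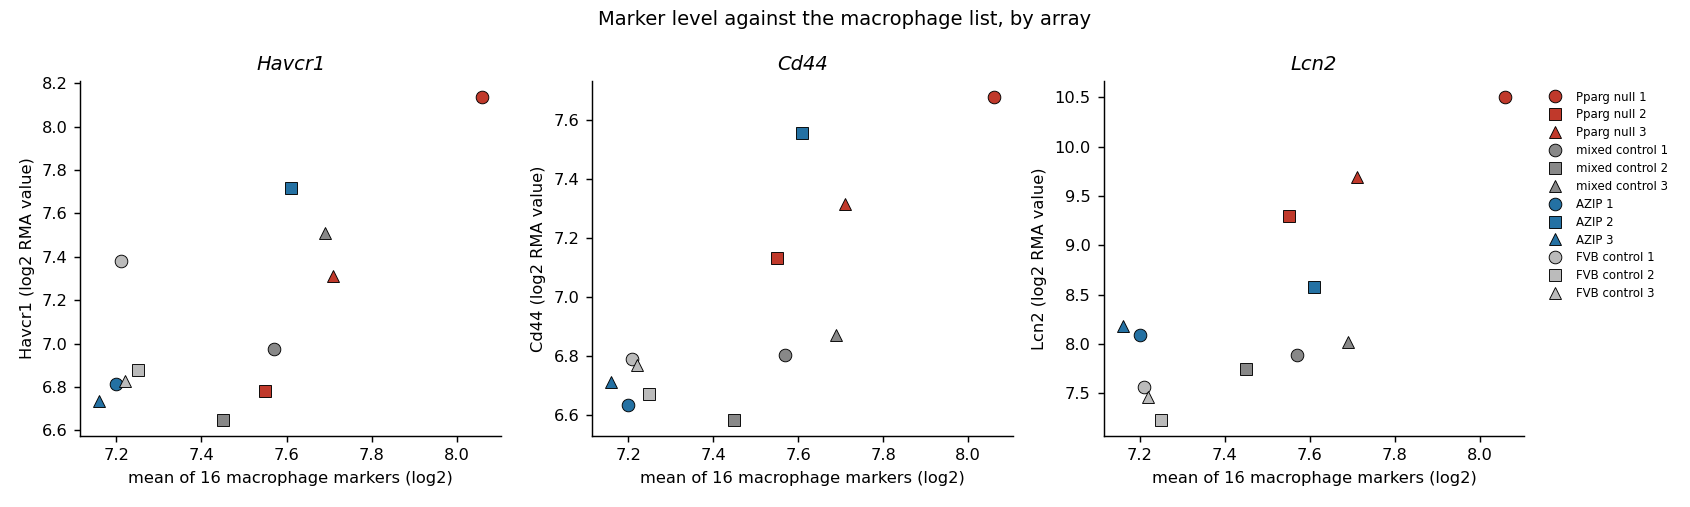
Log2 value of Havcr1, Cd44 and Lcn2 (vertical axes) against the mean log2 value of 16 macrophage markers (horizontal axis), 1 point per array. Pparg null array 1, at 8.06 on the horizontal axis, is highest in all 3 panels, and AZIP array 2 lies well above the other AZIP arrays.

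The genes most like Havcr1 and Lcn2 over the 12 arrays were sought among 2277 genes with an SD of at least 0.2. For Havcr1 they were Itgam (r = 0.889), the integrin of macrophages and neutrophils known as CD11b, the complement receptor C3ar1 (r = 0.870) and the ubiquitin-like conjugating enzyme gene Ube2l6 (r = 0.869). For Lcn2 they were Sprr2f (r = 0.973), a small proline-rich protein of epithelia, Zcwpw1 (r = 0.962) and the GABA receptor subunit Gabrp (r = 0.955). Sprr2f read 5.73, 4.79 and 5.40 on the Pparg null arrays, against 4.00, 4.17 and 4.24 on the mixed control arrays. These r values are descriptions, since arrays of a group share their condition.

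Neutrophils also make lipocalin 2, so their markers are given beside Lcn2. The mean of 18 neutrophil markers was 6.04, 5.74 and 5.79 on the Pparg null arrays, against 5.59, 5.63 and 5.62 on the mixed control arrays. Pparg null array 1, high for macrophage markers too, was the highest of its group for 12 of the 18, beside 33.2% of all genes. AZIP array 2 was the highest of its group for 8 of the 18, beside 32.4%. In Pparg null kidneys 4 of 18 rose and 1 fell (27.8% called, beside 5.29% of all genes), with a median of 0.18. S100a8 (0.74 ± 0.07, limma adjusted p = 0.000305) and Ngp (0.82 ± 0.13, limma adjusted p = 0.005) rose, as did S100a9 (0.53) and the collagenase Mmp8 (0.74), both of which lost the threshold without mixed control 1 (largest limma adjusted p = 0.0749). Mmp9, a gelatinase, fell by 0.41, a call that did not survive leaving out array 1 or array 3 of either group (largest limma adjusted p = 0.121). The count of 5 was 2 without mixed control 1 and 2 with only these groups in the fit. S100a8, Ngp and Mmp8 are dim genes, under percentile 25 of mean expression, so the count was 2 without genes under that percentile and 0 without those under percentile 50. The granule genes Mpo and Elane and the surface marker Ly6g were not called. Mpo read 5.62, 5.38 and 5.36 on the Pparg null arrays, against 5.58, 5.45 and 5.59 on the mixed control arrays. In AZIP kidneys 0 of 18 were called, with 1 at an unadjusted limma p under 0.05, beside 16.4% of all genes. The mean ran between 5.58 and 5.69, against 5.55 to 5.62 in FVB controls. The part of neutrophil RNA in the Lcn2 rise was not tested.

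A wider list of 40 injury and repair genes had 36 measured. In Pparg null kidneys 12 rose and 0 fell, with a median of 0.22 against -0.01 over all genes. These calls are 33.3% of the 36, beside 5.29% of all genes. The list was chosen with earlier results of these data known, so this share does not test for an excess. The ductal keratin Krt19 rose by 1.25 ± 0.20, the calcium-binding protein S100a6 by 0.83 ± 0.13, the scaffold Akap12 by 0.61 ± 0.10 and the annexin Anxa3 by 0.53 ± 0.08 (largest limma adjusted p = 0.00574). Vim, the mesenchymal filament protein that dedifferentiated tubule cells also make, rose by 0.48 ± 0.08 (limma adjusted p = 0.0083), and these 5 kept the call with each of the 6 arrays left out. The other 7 that rose were Timp1, Dcdc2a, Cldn4, Anxa1, Anxa2, S100a11 and Krt7, at 0.24 to 0.83, and each lost the call without at least 1 array. The count was 7 without Pparg null 2, 5 without Pparg null 3, 5 without mixed control 1 and 6 without mixed control 2. Unlike for the 7 markers, Pparg null array 1 was the highest of its group for 9 of the 36 and the lowest for 19. Pparg null array 3 was the highest for 18. AZIP array 2 was the highest of its group for 23. Beside these, 33.2%, 32% and 32.4% of all genes were highest on those 3 arrays. Of 13 urothelial genes, Pparg null arrays 1, 2 and 3 were the highest of their group for 2, 6 and 5. Array 1 was the lowest for 9 of the 13, and AZIP array 2 was the highest for 7. The part of urothelial and duct cells in the rises of the wider list was not tested.

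In AZIP kidneys 7 genes of the wider list rose and 1 fell, with a median of 0.21 against 0.00 over all genes. These calls are 22.2% of the list, beside 2.43% of all genes, a share with the same limit from the choice of the list. Krt7 rose by 0.38 ± 0.06 (limma adjusted p = 0.0147), Akap12 by 0.49 ± 0.10 (0.0243), Anxa3 by 0.42 ± 0.08 (0.0266) and Vim by 0.37 ± 0.08 (0.0392). Prom1, which encodes the progenitor surface protein prominin, fell by 0.34 ± 0.08 (limma adjusted p = 0.0436). All 7 that rose had also risen in Pparg null kidneys, where 143 of the 260 genes higher in AZIP kidneys (55% of them, and 26.9% of the 532 higher in Pparg null kidneys) were higher too. The comparisons share no array but share the variance estimate. The count of 8 was 0 without AZIP 2, 2 without AZIP 3, 0 without FVB control 1, 1 without FVB control 2 and 2 without FVB control 3, and 3 with only these groups in the fit. After the arrays were set to equal medians it was 4, with 3 higher and 1 lower.

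**Figure D4:**
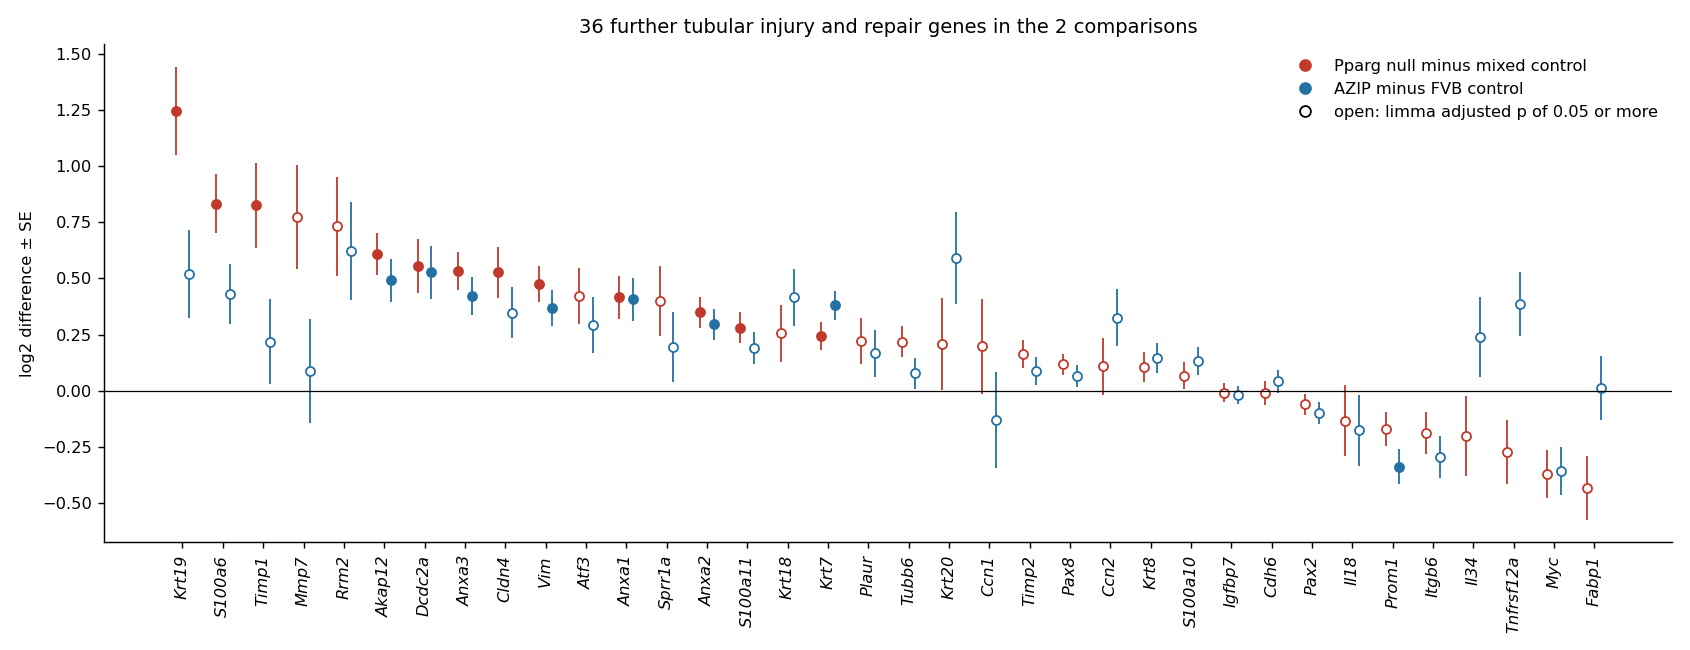
Log2 difference ± SE (vertical axis) of the 36 measured genes of the wider list for Pparg null minus mixed control (red) and AZIP minus FVB control (blue), with filled points for a limma adjusted p under 0.05. In Pparg null kidneys 12 red points are filled, all above 0, and in AZIP kidneys 8 blue points are filled, Prom1 alone below 0.

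Of the proximal tubule genes 16.7% were called in Pparg null and 8.33% in AZIP kidneys, beside 5.29% and 2.43% of all genes. In each line 22 of 24 lay below 0, beside 10598 (Pparg null) and 9747 (AZIP) of 19938 genes. Groups did not overlap for 12 in Pparg null and 16 in AZIP kidneys, all lower, beside 26.1% and 22.5% of all genes. Of the loop, distal tubule and collecting duct genes 25% were called in Pparg null kidneys. Of 24 proximal tubule genes 4 fell and 0 rose in Pparg null kidneys (median -0.16), led by Cyp2e1 (-1.14 ± 0.16, limma adjusted p = 0.00284), and 2 fell and 0 rose in AZIP kidneys (median -0.17), the organic anion transporter Slc22a7 (-1.37 ± 0.29) and the phosphate transporter Slc34a3 (-0.53 ± 0.12), both lost without AZIP 2 or any 1 FVB control, and Slc34a3 without AZIP 3 too (largest limma adjusted p = 0.158). The proximal count of 4 was 1 to 2 without Pparg null 2 or 3 or any 1 mixed control and 6 without Pparg null 1. The AZIP count of 2 was 4 without AZIP 1. Cyp2e1 was also lower in FVB than in mixed controls (-1.04, limma adjusted p = 0.00174). Slc22a7 was higher there (1.35, limma adjusted p = 0.0142), a call lost without mixed control 3 or FVB control 1. Of 20 loop, distal tubule and collecting duct genes 4 rose and 1 fell in Pparg null kidneys, with the prostaglandin receptor Ptger3 (0.48 ± 0.05) and the sodium channel subunit Scnn1a (0.35 ± 0.05) the firmest. In AZIP kidneys 0 of the 20 were called, with 2 at an unadjusted limma p under 0.05, beside 16.4% of all genes. The count of 5 was 2 without Pparg null 2, Pparg null 3, mixed control 1 or mixed control 3. Ptger3 was also higher in FVB than in mixed controls (0.27, limma adjusted p = 0.012), a call lost without mixed control 1. Urothelial genes split in Pparg null kidneys, with 38.5% of 13 called, beside 5.29% of all genes. The basal keratins Krt5 (1.80 ± 0.14), Krt14 (0.97 ± 0.14) and Krt15 (0.71 ± 0.09) rose. Upk1b (-0.91 ± 0.15) and Grhl3 (-0.18 ± 0.04) fell, Grhl3 losing the call when any 1 of the 6 arrays was left out. The part of urothelial cells in the Lcn2 rise was not tested.

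Partners of the markers were mostly not called. Over all genes 5.29% were called for Pparg null and 2.43% for AZIP, and 20.4% and 16.4% had an unadjusted limma p under 0.05. Among 16 genes of lipocalin uptake and iron handling 1 fell in Pparg null kidneys, the iron exporter Slc40a1 (-0.39 ± 0.05, limma adjusted p = 0.00184). In AZIP kidneys 0 were called. At an unadjusted limma p under 0.05 there were 8 of the 16 for Pparg null and 6 for AZIP. The lipocalin receptors Slc22a17 (-0.13) and Lrp2 (-0.14) were not called. Of 20 integrin and hyaluronan genes that pair with osteopontin, CD44 or VCAM-1, limma called 0 in Pparg null kidneys, with 5 at an unadjusted p under 0.05, and 1 in AZIP kidneys, the hyaluronidase Hyal2 (-0.29 ± 0.07, limma adjusted p = 0.0436), a call lost without AZIP 2 or 3 or any 1 FVB control (largest limma adjusted p = 0.18). Among 14 TIM and efferocytosis genes the bridging ligand Gas6 (-0.31 ± 0.05) and the scavenger receptor Stab2 (-0.45 ± 0.06) fell in Pparg null kidneys beside the rise of Timd2, and in AZIP kidneys 0 were called, with 6 at an unadjusted limma p under 0.05. Slc40a1 (-0.435), Gas6 (-0.225) and Stab2 (-0.601) were also called lower in FVB than in mixed controls (largest limma adjusted p = 0.0156). Of all genes 3.72% were called lower there.

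NF-kB and p53 target genes were read because Lcn2 and Vcam1 are known targets of the first and Cdkn1a of the second. Of 23 NF-kB targets 1 rose in each line, 4.35% beside 5.29% of all genes called for Pparg null and 2.43% for AZIP. These were the inhibitor of apoptosis Birc3 in Pparg null kidneys (0.36 ± 0.09, limma adjusted p = 0.0494) and the feedback inhibitor Nfkbia in AZIP kidneys (0.47 ± 0.10, limma adjusted p = 0.0322). Birc3 lost the call when any 1 of the 6 arrays was left out and Nfkbia without AZIP 1, 2 or 3 or FVB control 1 or 2 (largest limma adjusted p = 0.158). On Pparg null array 1, 19 of the 23 NF-kB targets were at their highest of the group, beside 33.2% of all genes. On AZIP array 2 it was 17 of 23, beside 32.4%. Of 23 p53 targets and CDK inhibitors 5 rose and 0 fell in Pparg null kidneys, 21.7% beside 5.29% of all genes called. In AZIP kidneys 4 rose and 0 fell, 17.4% beside 2.43% of all genes. The first count was 3 without Pparg null 2 or 3 and without mixed control 2 or 3, and the AZIP count was 2 when any 1 array but AZIP 3 was left out. Sesn1, a stress-response gene (0.47 ± 0.07 and 0.63 ± 0.07), and Trp53inp1 (0.63 ± 0.10 and 0.72 ± 0.10) rose in Pparg null and in AZIP kidneys and kept both calls with each array left out (largest limma adjusted p = 0.0351). The antiproliferative gene Btg2 rose by 0.64 ± 0.08 and 0.37 ± 0.08, the AZIP call being lost when any 1 of the 6 arrays was left out (largest limma adjusted p = 0.13). Of 19 SOX and nephron repair factors 1 fell in Pparg null kidneys (5.26%, beside 5.29% of all genes), Lhx1 (-0.41 ± 0.09, limma adjusted p = 0.022). That call was lost when array 2 or 3 of the mutant or 1 or 2 of the control was left out (largest limma adjusted p = 0.0801). Lhx1 was also lower in FVB than in mixed controls (-0.35, limma adjusted p = 0.0336), a call lost without mixed control 1 or 2 or any 1 FVB control. In AZIP kidneys 0 were called, with 4 at an unadjusted limma p under 0.05, beside 16.4% of all genes.

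Genes of other cell types that the tissue could hold were read too. Beside their counts, 5.29% of all genes were called for Pparg null and 2.43% for AZIP. An unadjusted limma p under 0.05 was found for 20.4% and 16.4% of all genes. Lymphocyte genes had 0 of 11 called in either line, with 0 at an unadjusted limma p under 0.05. Among 7 erythroid genes 1 rose in Pparg null kidneys, Epb42 (0.34 ± 0.09), lost when any 1 mutant array, or mixed control 1 or 2, was left out (largest limma adjusted p = 0.133), and 0 were called in AZIP kidneys, with 1 at an unadjusted limma p under 0.05. In Pparg null kidneys all 7 lay above 0 (median 0.18), beside 9337 of 19938 genes, and 3 had an unadjusted limma p under 0.05. Groups did not overlap for 4 of the 7, all higher, beside 26.1% of all genes in either direction. The amount of blood in the tissue was not tested. Of 14 endothelial and mural genes 4 rose in Pparg null kidneys and 3 in AZIP kidneys, including the smooth muscle actin Acta2 (0.88 ± 0.11 and 0.52 ± 0.11), whose AZIP call was lost without AZIP 3 or any 1 FVB control (largest limma adjusted p = 0.111). The AZIP count of 3 was 1 without AZIP 2 or FVB control 3 and 0 without AZIP 3 or FVB control 1 or 2. Of 9 white fat genes 1 fell in Pparg null kidneys, the lipase gene Lipe (-0.59 ± 0.09), and Adipoq, the defining fat hormone, read 4.28 to 4.38 on the Pparg null arrays, against 4.33 to 4.60 on the mixed control arrays. In AZIP kidneys, where 0 of the 9 were called and 4 had an unadjusted limma p under 0.05, Adipoq read 4.28 to 4.61, against 4.42 to 4.51 in FVB controls.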

How the data were processed

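Whole-kidney RNA of 12 pools was hybridised to Affymetrix whole-transcript arrays. The authors deposited log2 values and, per the submitters' processing notes, used RMA and Affymetrix Expression Console. RMA subtracts background, normalizes the arrays together and summarises the probes of a set. No version or setting is named there. The deposited log2 values were used unchanged.

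Of 35556 probe sets 21789 had 1 gene symbol, 1621 several and 12146 none. The Entrez number gave 21698 of these probe sets a current symbol, and the probe set with the highest mean was kept for 999 genes with several, which left 19938 genes. Group means of all 12 arrays were fitted with limma 3.58.1 in R 4.3.3 (8 residual and 3.71 prior degrees of freedom). Adjustment was by the Benjamini-Hochberg method over all genes. The number of arrays limits the precision, with a median SE of 0.0698. The fit was tested on simulated data.

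The 9 markers and the lists were chosen with earlier results of these data known. Shares of a list printed beside those of all genes are therefore descriptions and not tests. Named genes are the measured markers, up to 4 genes per list and comparison with the smallest adjusted p past the threshold, defining cell type markers, and the 3 genes most like Lcn2 and Havcr1; for Spp1 none could be sought. Genes named beyond this rule, such as further members of the wider list that rose, relatives of Havcr1 and receptors of lipocalin, were chosen after their values were seen. Nothing in the labels says whether replicate numbers pair the samples. Deviations from group means correlated between same-numbered FVB and mixed control arrays at 0.247, 0.181 and 0.135. For Pparg null and mixed control arrays these values were 0.184, 0.179 and 0.009, and for AZIP and FVB control arrays -0.036, -0.103 and -0.010. The main fit held no replicate block. The block was run as an alternative, and the blocked value is printed beside the marker whose call it changed. No source says that arrays of a group came from separate litters, so p-values measure the spread between these pools. Alternatives covered normalization, filters on dim genes, the probe set rule, the samples fitted, the variance prior, array weights, the replicate block, the threshold and leaving out each array.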

Additional observations from a re-analysis of the deposited data

Results flagged for a closer look

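Krt5, the basal keratin read among the urothelial genes, was the 1 listed gene whose change differed between the lines. It read 8.55, 8.32 and 8.95 on the Pparg null arrays, against 6.86, 6.67 and 6.91 on the mixed control arrays. On the AZIP arrays it read 6.80, 7.05 and 6.88, against 6.70, 6.91 and 6.61 on the FVB control arrays. The effect in Pparg null kidneys exceeded that in AZIP kidneys by 1.63 ± 0.20 (limma adjusted p = 0.0215). That call was lost without mixed control 1 or 2, AZIP 1, 2 or 3 or FVB control 2 (largest limma adjusted p = 0.0915). With the replicate number as a block it was lost too (limma adjusted p = 0.114).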

How the results depend on the processing

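Lcn2 in Pparg null kidneys kept its direction and call under all 16 alternatives. The count of called markers for Pparg null was 2 (Cd24a added) with genes under percentile 50 left out and with a variance trend and robust prior. For AZIP it was 1 with genes under percentile 25 left out (Cd24a), 3 with those under percentile 50 left out (Lcn2, Vcam1 and Cd24a), 1 with only the groups compared (Lcn2), 1 with the trend (Cd24a), 2 with array weights (Lcn2 and Vcam1) and 3 at an adjusted p under 0.10 (Lcn2, Vcam1 and Cd24a). Between controls it was 0 after quantile normalization, after equal medians and with the replicate block, 2 with only these groups (Lcn2 and Clu) and 0 with each array left out. Havcr1, Cd44 and Sox9 fell under percentile 50 of mean expression and have no value there.

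Over all genes, the Pparg null count of 1055 was 607 with only these groups, 1938 at an adjusted p under 0.10 and 330 to 1084 with each array left out. The AZIP count of 485 was 836 with genes under percentile 50 left out, 162 with only these groups, 741 with the trend, 1035 at 0.10 and 62 to 569 with each array left out. The 4 genes whose effects differed were 1 with genes under percentile 50 left out, 7 with the trend, 1 with the replicate block, 7 at 0.10 and 0 to 9 with each array left out. Between controls 1439 became 2219 with array weights and 852 to 947 with each array left out. The replicate block gave 1102 for Pparg null and 694 for AZIP and changed the call of none of the 7 markers there. In Pparg null kidneys it ended the calls of S100a11, Birc3, Gadd45a, Mmp9 and Grhl3 (limma adjusted p 0.0504 to 0.0617). Same-numbered arrays correlated at 0.184, 0.179 and 0.009 for Pparg null and -0.036, -0.103 and -0.010 for AZIP, and array 3 of Pparg null correlated best with mixed control 2. The cause of these changes was not tested. Alternatives for the lists and their genes were added after seeing the data.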
